A study of Mus musculus with 12 samples.

Results

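The comparison described here asks whether mouse CD4+ T cells that lack Adcy10 responded to polarizing cytokines differently from wild-type (WT) cells. All 12 RNA-seq libraries of the study enter it, in 4 groups of 3: WT in baseline medium, WT with cytokines, Adcy10-/- in baseline medium and Adcy10-/- with cytokines. Every animal was a male C57BL/6 mouse of 8 to 10 weeks. The knockout allele is given only as Adcy10-/-, and whether the WT mice were littermates is not stated. CD4+ cells from spleen or lymph node were isolated by depleting other cells with magnetic beads and spent 18 hours on coated anti-CD3 (10 µg/mL) with soluble anti-CD28 (2 µg/mL). The cytokines in the protocol are IL-6, at 25 ng/mL, and IL-1β and IL-23, both at 20 ng/mL, beside neutralizing antibodies against IFNγ and IL-4 (1 µg/mL each). It does not say which of these the baseline medium lacked. Whether the 3 libraries of a group came from separate mice is not stated either, so the p-values measure only the spread among these libraries, which may be technical.

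For each gene the cytokine effect was the mean log2(FPKM + 1) with cytokines minus the mean in baseline medium, within a genotype. FPKM, the deposited unit, is the number of sequenced fragments scaled by transcript length and library size. The interaction was the cytokine effect in Adcy10-/- minus the cytokine effect in WT, so that a value of 1 stands for a response that is 2-fold higher in Adcy10-/- cells. Adding 1 FPKM understates the changes of genes with low levels. Of 23991 gene names, 10126 reached at least 1 FPKM in at least 3 libraries and were tested with limma, a linear model that shares information on variance across genes. A gene was called when its Benjamini-Hochberg adjusted p over all 10126 genes was under 0.05. The average cytokine effect, the mean of the effects in both genotypes, is statistically independent of the interaction in this balanced design and was used to choose responders. FPKM values of a library are given below in the order of the replicate numbers 1, 2 and 3.

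The FPKM of a library summed to between 547870 and 594750, and 9778 to 9925 genes reached 1 FPKM; read depth is unknown. The lowest correlation between libraries of 1 group was 0.986. Adcy10 itself was listed at 0 FPKM in all 12 libraries, so the targeted transcript does not check the genotype labels. The T cell genes Cd3e, Cd3d and Cd4 were high in every library, at 169 to 259.5, 189.9 to 271 and 119 to 179 FPKM. Cd8a ranged from 0.0673 to 2.52 FPKM.

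Soluble adenylyl cyclase, the product of Adcy10, produces cAMP, a second messenger, within the cytosol and organelles and is activated by bicarbonate and calcium. The transmembrane adenylyl cyclases make cAMP on signals from G proteins. cAMP activates protein kinase A, which phosphorylates the transcription factor CREB, and phosphodiesterases degrade it. Th17 cells are CD4+ T cells that secrete IL-17A, IL-17F and IL-22. IL-6 and IL-23 act on them through kinases of the JAK family and the transcription factor STAT3.

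The cytokines moved the leading genes in one direction in both genotypes. The cytokine gene Il21 was higher by 3.43 (log2) in WT and 3.53 in Adcy10-/- cells, and the protease inhibitor gene Timp1 by 3.00 and 2.76. Eomes, a factor of cytotoxic and Th1 cells, was lower, with effects of -2.85 and -2.92. On the average cytokine effect 665 genes rose (6.57% of those tested) and 676 fell (6.68%). With the replicate number as a block within each genotype these counts were 1229 (12.1%) and 1479 (14.6%). No gene passed for the interaction (0.0% of 10126) in limma without a block, and none with the block within genotype (0.0%). At an unadjusted p under 0.05 there were 112 genes without the block, 36 with the higher and 76 with the lower effect in Adcy10-/-, and 389 with it, 116 higher and 273 lower. With no interaction in any gene a share of 0.05 of the 10126 would be expected there, and both counts are below it. Without WT cytokine replicate 3 the first of these counts was 222, with 107 higher. After quantile normalization the split of 108 such genes was 43 higher and 65 lower, and after median-ratio scaling that of 112 genes was 50 and 62.

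**Figure D1:**
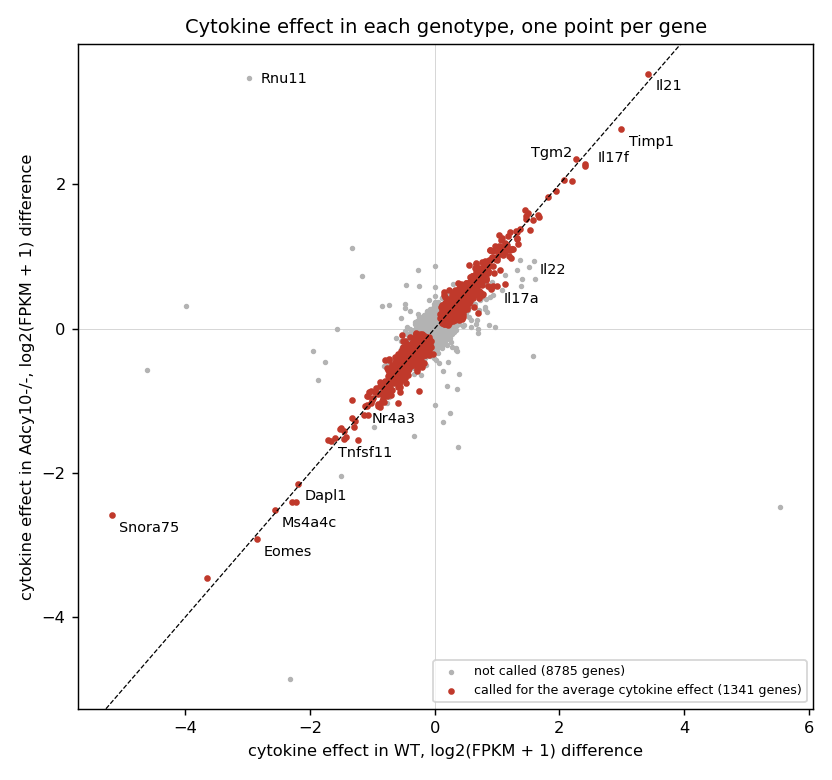
Cytokine effect in WT cells (x axis) against that in Adcy10-/- cells (y axis), both as differences of log2(FPKM + 1), for each of the 10126 genes tested. Red points are the 1341 genes called for the average cytokine effect, grey points the other genes, and the dashed line marks equal effects. Il21, Timp1 and Eomes lie along the line, with Il22 and Il17a below it and small RNA genes such as Rnu11 and Snora75 far from it.

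The interactions were small and their intervals narrow for most genes. Over all tested genes the median interaction was -0.01, the middle 95% ran from -0.22 to 0.21, and 24 genes lay beyond 1 in either direction. The 95% interval of the interaction stayed within 2-fold in both directions for 9854 genes (97.3%) and within 1.5-fold for 8858 (87.5%). Among the 1341 responders the corresponding counts were 1309 (97.6%) and 1107 (82.6%). The response was the smaller one in Adcy10-/- for 740 of them (55.2%), against 5718 of all 10126 genes (56.5%). Among the 75 responders of at least 2-fold, 48 of which rose, the median interaction counted in the direction of the response was -0.01, and 41 of 75 were smaller in Adcy10-/-. With the responders chosen anew in each fit, this median lay between -0.18 and 0.14 when single libraries were left out. It was positive without any 1 of 6 libraries. For 56 of the 75 the interval stayed within 2-fold but for 13 within 1.5-fold, and their median standard error was 0.31, against 0.12 over all tested genes. For 69 of the 75 the interval excluded an Adcy10-/- response smaller than the WT response by the size of the gene's own average effect. Among all 1341 responders it did so for 761. The 75 were chosen for a large average effect, and the same spread sets both intervals. The count of 69 is therefore high in part by that choice, and no conclusion is drawn from it.

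Il17a, the signature cytokine gene of Th17 cells, did not pass for the average cytokine effect (adjusted p = 0.271 in limma). Its level in WT was 16.6, 11.0 and 46.5 FPKM in baseline medium and 56.4, 21.4 and 52.8 FPKM with cytokines. In Adcy10-/- it was 11.6, 26.5 and 52.7 FPKM and 30.5, 34.9 and 63.2 FPKM. The cytokine value exceeded the baseline value of the same number in all 6 number pairs, although the groups overlapped within both genotypes. With the number as a block within genotype the average effect of 0.79 passed (adjusted p = 0.016). The effects were 0.93 in WT and 0.65 in Adcy10-/-, and their interaction of -0.27 had a 95% interval of -2.12 to 1.58, or -1.14 to 0.59 with the block. A difference as large as the response itself therefore lay within either interval.

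Il17f, which encodes the partner of IL-17A in heterodimers, rose by 2.33 on average (adjusted p = 0.022). The WT libraries held 10.3, 3.20 and 34.0 FPKM at baseline and 90.0, 33.5 and 78.7 FPKM with cytokines. Those of Adcy10-/- held 2.39, 21.4 and 27.9 FPKM and 55.7, 55.5 and 73.8 FPKM. Baseline and cytokine libraries did not overlap in Adcy10-/- but did in WT, where baseline replicate 3 was above cytokine replicate 2. The call for the average effect was lost by a small margin without WT baseline replicate 2 (adjusted p = 0.0535), WT cytokine replicate 1 (0.0531) or Adcy10-/- cytokine replicate 3 (0.0516). The interaction was -0.15 with an interval of -2.72 to 2.42, the widest of the cytokine genes named here.

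Il22, an epithelial-acting Th17 cytokine gene, had the lowest interaction p of the Th17 cytokine list. Its WT values were 21.2, 20.3 and 62.6 FPKM at baseline and 116, 58.6 and 98.5 FPKM with cytokines, and in Adcy10-/- they were 18.4, 82.3 and 113 FPKM and 103, 81.7 and 125 FPKM. In Adcy10-/- replicates 2 and 3 the baseline level was already at the level with cytokines, and their changes were -0.01 and 0.15, whereas replicate 1 changed by 2.42 and the WT pairs by 2.4, 1.49 and 0.65. The effects of 1.51 and 0.85 gave an interaction of -0.66 (interval -2.51 to 1.19, unadjusted p = 0.451). The average effect passed only with the block within genotype (adjusted p = 0.0931 without and 0.0256 with it) or without WT baseline replicate 3 (0.0398).

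Il21, whose product acts through STAT3 on the same cells, gave the largest average effect of the named genes, 3.48 (adjusted p = 9.31e-05). It stood at 2.58, 4.40 and 13.4 FPKM in WT baseline medium and 70.3, 64.3 and 73.8 FPKM with cytokines, and at 1.84, 9.98 and 6.11 and 62.5, 73.7 and 70.8 FPKM in Adcy10-/-. All 6 cytokine libraries lay above all 6 baseline libraries, and within each medium the genotypes overlapped. The interaction was 0.10 with an interval of -1.44 to 1.64.

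Of the 15 tested genes of the Th17 cytokine list, 5 rose and 3 fell on the average effect, or 8 and 4 with the block. Over all tested genes 6.57% rose and 6.68% fell, or 12.1% and 14.6% with the block. The median cytokine effect of the list was 0.46 in WT and 0.39 in Adcy10-/-, beside -0.01 and -0.02 over all tested genes. None of its interactions reached an unadjusted p under 0.05, beside 112 of all 10126 genes, and for a list of this size none is near that share. Of the 15 interactions 8 were below 0, against 5484 of all 10126. The median of -0.04 changed sign under 6 of the 23 alternative settings. The blocks and variance settings among the 23 cannot change this median. Il10, an inhibitory cytokine gene, rose with effects of 1.10 in WT and 1.02 in Adcy10-/- (interaction interval -0.56 to 0.40). Il2, the T cell growth factor gene, rose by 0.87 and 0.95 (-0.78 to 0.94). Tnfsf11, which encodes RANK ligand, fell with effects of -1.66 and -1.55, and Lta, which encodes lymphotoxin alpha, with -1.32 and -1.24. Csf2, the GM-CSF gene, had effects of -0.27 and -0.26 and did not pass.

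**Figure D2:**
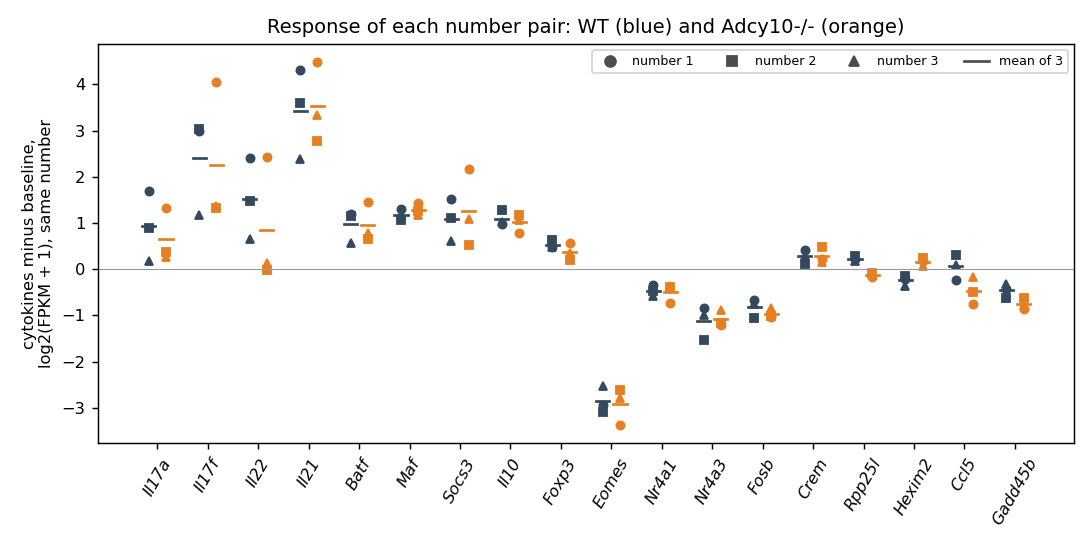
Response of each number pair, that is log2(FPKM + 1) with cytokines minus baseline medium for libraries of the same replicate number (y axis), for 18 genes (x axis). Blue symbols are WT and orange symbols Adcy10-/-, with the symbol shape giving the number and the bar the mean of 3. For Il22 the Adcy10-/- pairs 2 and 3 lie near 0 while pair 1 reaches 2.42, and for Rpp25l and Hexim2 the genotypes' pairs do not overlap.

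Maf, a factor that drives Il10 and Il21 in T cells, rose by 1.18 in WT and 1.28 in Adcy10-/-, and Batf, an AP-1 factor needed for Th17 differentiation, by 0.97 and 0.96. Il1r1, the IL-1 receptor gene, rose by 0.74 and 0.64, and Ahr, the aryl hydrocarbon receptor gene, by 0.62 and 0.62. Irf4 and Stat3 were near 143 and 71.8 FPKM on average and did not pass, with effects of 0.04 and 0.09 for Irf4 and 0.17 and 0.17 for Stat3. Leaving out WT baseline replicate 3 brought the average effect of Stat3 to an adjusted p of 0.0483. Rora, at 0.389 to 1.03 FPKM, and Il23r, the IL-23 receptor gene at 0.29 to 1.01 FPKM, were under the filter and not tested.

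Over the 20 tested Th17 factors and receptors, 9 rose and none fell on the average effect, or 11 and 2 with the block, and the median effect was 0.27 in WT and 0.28 in Adcy10-/-. Ccr6, the Th17 chemokine receptor gene, had the lowest interaction p of this list, 0.15. It was 1.08, 1.31 and 1.25 FPKM in WT baseline and 1.59, 0.953 and 1.40 FPKM with cytokines, and 1.09, 1.22 and 2.01 and 0.625, 0.758 and 1.46 FPKM in Adcy10-/-. The groups overlapped at these low levels, and the interaction was -0.39 (interval -0.94 to 0.16). In the JAK-STAT3 list of 22 genes, 11 rose and 3 fell, with medians of 0.25 in WT and 0.29 in Adcy10-/-. Over all tested genes 6.57% rose and 6.68% fell without the block, and 12.1% and 14.6% with it.

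Socs3, the feedback inhibitor that STAT3 induces, rose by 1.08 in WT and 1.26 in Adcy10-/- (adjusted p of the average effect = 0.00173). Its WT level went from 30.7, 24.8 and 33.7 FPKM to 89.5, 54.9 and 52.1 FPKM, and its Adcy10-/- level from 21.1, 36.3 and 30.0 FPKM to 97.6, 52.3 and 65.4 FPKM. The media did not overlap in either genotype, and the interaction interval ran from -0.64 to 0.99. The transcriptional repressor Bcl6 rose by 0.32 and 0.54, and the kinase gene Pim2 fell with effects of -0.91 and -1.04. Bcl6 had an interaction of 0.22 with an interval of -0.12 to 0.56 (unadjusted p = 0.189).

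Promoter sequences give the context in which these signals are read. RefSeq windows on GRCm38.p6, a later build than the mm9 of the deposited values, were matched by symbol to 7682 of the 10126 tested genes. Each window runs from 250 bases before to 50 after a transcript start. Both strands were searched for TTCNNNGAA, the spaced half-sites that STAT dimers bind, and for TGACGTCA, the full cAMP response element that CREB binds. The windows below hold the first motif (capitals) upstream of Socs3 (chr11:117969472-117969560, minus strand), which rose, and of the interferon factor gene Irf1 (chr11:53769884-53769972, plus strand), which fell.
Socs3: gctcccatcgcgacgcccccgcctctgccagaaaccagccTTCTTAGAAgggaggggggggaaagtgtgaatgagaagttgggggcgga
Irf1: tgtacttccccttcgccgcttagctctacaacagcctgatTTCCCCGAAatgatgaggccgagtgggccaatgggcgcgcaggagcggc
The motif TTCNNNGAA was found for 651 of the matched genes (8.47%) and in 8.30% of all 32851 windows. One share counts tested genes and the other windows of all genes, so they are not like for like. The median cytokine effect of the 651 genes was -0.01 in WT and -0.02 in Adcy10-/-, and the median interaction -0.01, as over all matched genes. Socs3 and Irf1 thus share the letters and went opposite ways in both genotypes: Irf1 had effects of -0.43 in WT and -0.57 in Adcy10-/- (adjusted p of the average effect = 5.14e-05). Irf1 was 131, 146 and 131 FPKM in WT baseline and 95.3, 100.3 and 107 FPKM with cytokines, and 163, 148 and 146 and 98.7, 104 and 105 FPKM in Adcy10-/-, with no overlap between media. Its interaction was -0.14 (interval -0.34 to 0.06).

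**Figure D3:**
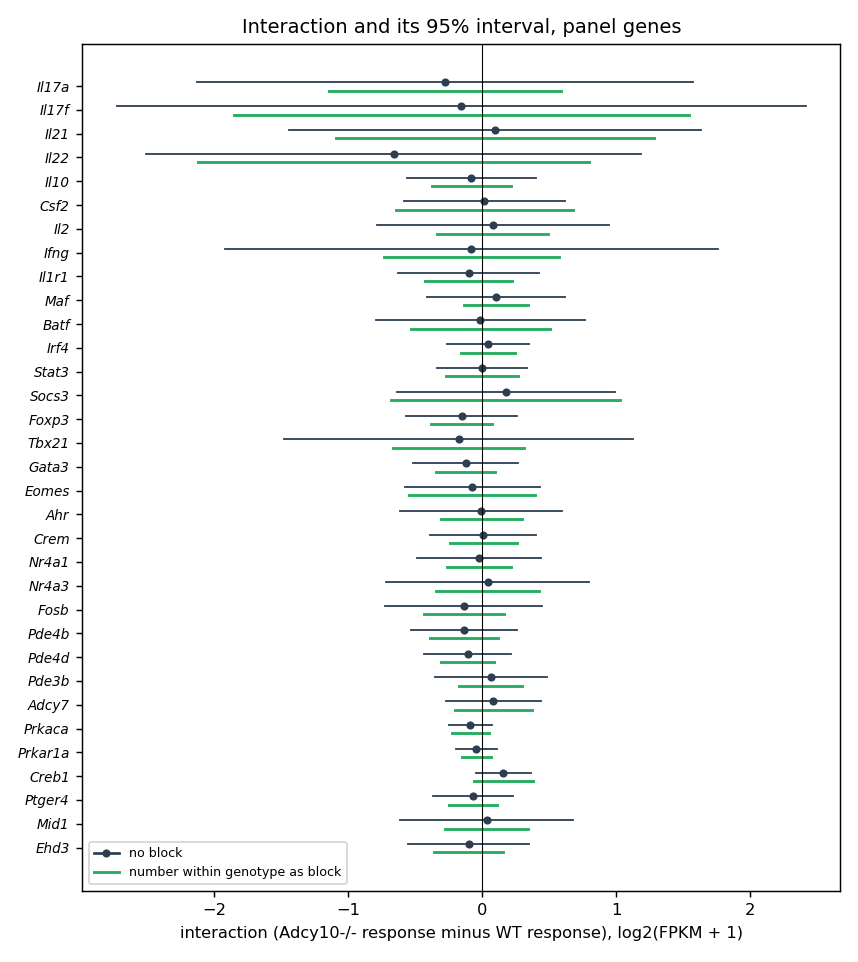
Interaction (x axis, Adcy10-/- response minus WT response in log2(FPKM + 1)) and its 95% interval for tested genes of the panel (y axis). Dark lines with a point are the estimates without a block and green lines the intervals with the replicate number as a block within genotype. Every interval drawn, of both kinds, holds 0, and those of Il17f, Il22, Il17a and Ifng are among the widest without the block.

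Genes that make and remove cAMP included a few that fell and none that rose. Of the 10 listed adenylyl cyclase genes, Adcy3, Adcy6 and Adcy7 were tested, and Adcy2 and Adcy10 were at 0 in all libraries. Adcy7 was 11.4, 9.75 and 8.69 FPKM in WT baseline and 8.11, 6.69 and 8.09 FPKM with cytokines, and 11.1, 8.65 and 10.3 and 7.90, 7.74 and 9.05 FPKM in Adcy10-/-. It fell on the average effect (adjusted p = 0.031), a call that was lost without any 1 of 7 libraries (highest adjusted p = 0.0718), and its interaction was 0.09 (-0.27 to 0.44). Adcy3 and Adcy6 had interactions of 0.00 (-0.33 to 0.33) and 0.13 (-0.29 to 0.55).

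Among receptors and G proteins that raise or lower cAMP, 1 of 10 tested genes rose and 1 fell, near the 6.57% and 6.68% of all genes. The prostaglandin E2 receptor gene Ptger2 rose by 0.29 in WT and 0.47 in Adcy10-/-, and Ptger4, which encodes another receptor for the same ligand, fell with -0.42 and -0.49. Ptger4 was 13.5, 13.1 and 10.9 FPKM in WT baseline and 9.50, 8.97 and 8.71 FPKM with cytokines, and 13.8, 11.7 and 14.3 and 9.82, 8.25 and 9.51 FPKM in Adcy10-/-. The media did not overlap, and the interaction was -0.06 (-0.36 to 0.23). Ptger2 was named after its values were seen. With the block, 3 genes of this list rose and 2 fell, beside 12.1% and 14.6% of all genes.

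Of 7 tested phosphodiesterase genes, none rose and 3 fell: Pde3b, Pde7a and Pde8a, the last named after its values were seen. Over all tested genes 6.57% rose and 6.68% fell. Pde3b was 14.3, 10.7 and 9.76 FPKM in WT baseline and 9.18, 6.61 and 7.94 FPKM with cytokines, and 12.2, 10.0 and 11.4 and 8.32, 7.49 and 8.34 FPKM in Adcy10-/-. The media were separated in both genotypes, with effects of -0.49 and -0.42 and an interaction of 0.07 (-0.35 to 0.49). Pde7a had effects of -0.28 and -0.18, and its call was lost without any 1 of 7 libraries. Without WT baseline replicate 2, 1 phosphodiesterase gene was called. Pde4b and Pde4d, which encode the main cAMP phosphodiesterase family of lymphocytes, did not pass, with interactions of -0.13 (-0.53 to 0.26) and -0.11 (-0.43 to 0.22).

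Protein kinase A and CREB were expressed in all groups. Prkaca, the catalytic subunit gene, was 26.4, 25.3 and 26.5 FPKM in WT baseline and 30.9, 28.6 and 28.5 FPKM with cytokines, and 26.9, 26.3 and 26.4 and 29.6, 27.1 and 27.4 FPKM in Adcy10-/-. All cytokine libraries lay above all baseline libraries, and the average effect of 0.12 passed only with the block (adjusted p = 0.0534 without and 0.02 with it). Its interaction of -0.09 had the interval -0.25 to 0.07. The regulatory subunit gene Prkar1a had effects of 0.12 and 0.08 with an interaction of -0.04 (-0.20 to 0.11). Creb1 itself fell (adjusted p = 0.00817). It went from 7.42, 7.77 and 7.35 FPKM to 6.18, 5.36 and 6.18 FPKM in WT and from 7.49, 6.79 and 6.99 FPKM to 6.12, 6.55 and 6.32 FPKM in Adcy10-/-. The effects of -0.30 and -0.14 gave an interaction of 0.16 (-0.04 to 0.36, unadjusted p = 0.109), the lowest p among the CREB factors and coactivators. Over the 12 tested sensors none rose and 2 fell, or 3 and 2 with the block. Over the 13 CREB factors 1 rose and 2 fell, or 2 and 3 with it. With so few members, nothing is read into these counts. The shares of all genes were 6.57% and 6.68% without the block and 12.1% and 14.6% with it. Neither list had an interaction at an unadjusted p under 0.05, beside 112 of all 10126 genes, and for lists of this size none is near that share. With any 1 library left out at most 1 of the 12 sensors fell, and without WT baseline replicate 2 none did.

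The genes that cAMP and CREB are known to induce went in both directions. Among 28 tested members, 6 went up and 7 down (11 and 8 with the block), and the median cytokine effect was -0.02 in WT and 0.04 in Adcy10-/-. Over all tested genes 6.57% rose and 6.68% fell (12.1% and 14.6% with the block). Nr4a3, an early orphan nuclear receptor gene, fell from 26.4, 40.7 and 34.4 FPKM to 14.4, 13.4 and 16.8 FPKM in WT and from 26.5, 34.4 and 43.0 FPKM to 11.0, 14.8 and 23.0 FPKM in Adcy10-/-. No cytokine library reached a baseline library, and the interaction was 0.04 (-0.71 to 0.80). Nr4a1, of the same family, fell with effects of -0.47 and -0.49 (-0.48 to 0.44), and Fosb, an AP-1 gene, with -0.82 and -0.96 (-0.72 to 0.45). Crem, the gene of a CREB-family modulator, had effects of 0.28 and 0.29 and passed only with the block (adjusted p = 0.0623 without and 0.00596 with it) or without WT cytokine replicate 2 (0.0475) or Adcy10-/- cytokine replicate 1 (0.0261).

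Gadd45b, a stress-response gene, was the only member of this list with an interaction at an unadjusted p under 0.05, beside 112 of all 10126. It was 76.5, 83.8 and 68.6 FPKM in WT baseline and 56.9, 53.9 and 54.8 FPKM with cytokines, and 85.7, 72.1 and 86.1 and 46.6, 46.7 and 49.7 FPKM in Adcy10-/-. The gene fell in both genotypes (adjusted p of the average effect = 6.52e-05), and the 3 Adcy10-/- cytokine libraries were the lowest of all 12. The changes of the number pairs were -0.42, -0.63 and -0.32 in WT and -0.87, -0.62 and -0.78 in Adcy10-/-, which overlap. Its interaction was -0.30 (-0.55 to -0.05, unadjusted p = 0.0241) and did not survive adjustment over all genes.

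Single sites of the full cAMP response element were not listed for every window, and the response genes Crem and Egr1 were not covered. Whether these genes hold the element is therefore not stated here. Among the genes covered, it lies upstream of 2 genes of the response list and of Prkar1a. It also lies upstream of genes of other lists, such as Jak1, Ldha and Zap70. The windows of the 2 response genes and of Prkar1a are shown with TGACGTCA in capitals. They come from Dusp1, a MAP kinase phosphatase gene (chr17:26508568-26508655, minus strand), Btg2, an antiproliferative gene (chr1:134079274-134079361, minus strand), and Prkar1a (chr11:109650860-109650947, plus strand).
Dusp1: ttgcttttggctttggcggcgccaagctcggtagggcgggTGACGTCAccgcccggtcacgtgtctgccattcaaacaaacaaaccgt
Btg2: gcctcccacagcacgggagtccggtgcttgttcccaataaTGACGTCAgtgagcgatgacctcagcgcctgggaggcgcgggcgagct
Prkar1a: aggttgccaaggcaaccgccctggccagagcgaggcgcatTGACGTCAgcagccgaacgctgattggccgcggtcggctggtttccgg
None of the 3 passed for the average effect in limma without the block, and Prkar1a passed with it (adjusted p = 0.0139) or without WT baseline replicate 1 (0.0468). Dusp1 was 14.8, 13.4 and 10.6 FPKM in WT baseline and 15.4, 11.9 and 11.1 FPKM with cytokines, and 15.9, 13.4 and 13.9 and 13.5, 11.1 and 11.6 FPKM in Adcy10-/-. Its groups overlapped, and the interaction was -0.22 (-0.64 to 0.20). Btg2, named because of its sequence, had effects of 0.12 and 0.21 (-0.28 to 0.46). TGACGTCA was found for 306 matched genes (3.98%) and in 1.79% of all windows. The first share counts tested genes and the second counts windows of all genes, so the 2 are not like for like. The median cytokine effect of these 306 genes was -0.02 in both genotypes and their median interaction 0.00, with 5 at an unadjusted p under 0.05, beside 80 of all 7682 matched genes. A match of letters is a description and not a site of binding.

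Of the genes of other T cell fates named here, Eomes fell and Foxp3 rose, while Ifng, Tbx21 and Gata3 did not pass without the block. Eomes went from 26.6, 25.8 and 18.7 FPKM to 2.61, 2.15 and 2.42 FPKM in WT and from 30.2, 20.2 and 26.6 FPKM to 2.01, 2.48 and 3.01 FPKM in Adcy10-/-. The gap between media was many times the spread within them, and the interaction was -0.07 (-0.58 to 0.43). Ifng, the Th1 cytokine gene, was 24.0, 113 and 75.0 FPKM in WT baseline and 23.3, 49.5 and 31.6 FPKM with cytokines, and 33.1, 122 and 77.7 and 21.8, 61.8 and 35.4 FPKM in Adcy10-/-. Number 1 was the lowest in 4 of 4 groups, and the average effect of -0.85 passed only with the block (adjusted p = 0.23 without and 0.00307 with it). The interaction of Ifng was -0.08 (interval -1.92 to 1.76, or -0.73 to 0.58 with the block). Tbx21, the Th1 factor gene, had effects of 0.01 and -0.16, and Gata3, the Th2 factor gene, of 0.00 and -0.12, and neither passed. Foxp3, the regulatory T cell factor gene, rose by 0.53 in WT and 0.38 in Adcy10-/- (-0.57 to 0.26). In bulk RNA a change in the share of a cell type cannot be told apart from a change of RNA per cell.

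Ccl5, a chemokine gene of effector T cells, had the lowest interaction p of the Th1 and cytotoxic list. It was 9.39, 8.34 and 8.10 FPKM in WT baseline and 7.91, 10.6 and 8.74 FPKM with cytokines, and 11.6, 10.0 and 7.37 and 6.46, 6.79 and 6.48 FPKM in Adcy10-/-. The Adcy10-/- cytokine libraries were the lowest 3 of 12, while the changes of the number pairs overlapped (-0.22, 0.32 and 0.10 in WT, -0.75, -0.50 and -0.16 in Adcy10-/-). The interaction was -0.54 (-0.96 to -0.11, unadjusted p = 0.0171). Of the 19 tested genes of this list 4 rose and 5 fell, beside 6.57% and 6.68% of all genes. With the block 10 rose and 6 fell, beside 12.1% and 14.6%. The number of the list that rose without the block was 2 when Adcy10-/- baseline replicate 3 was left out. The interaction was below 0 for 18 of the 19, against 5484 of all 10126, and its median was -0.08. The median was 0.05 without Adcy10-/- baseline replicate 2 and 0.04 without Adcy10-/- cytokine replicate 1.

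The genes with the largest average effects had similar estimates in the genotypes, with intervals that are wide for several. Among those that rose, Tgm2, a transglutaminase gene, had effects of 2.42 in WT and 2.28 in Adcy10-/-, Il1rn, the IL-1 receptor antagonist gene, of 2.07 and 2.07, and Igfbp4, which encodes an insulin-like growth factor binding protein, of 1.83 and 1.82. The apoptotic caspase gene Casp6 rose by 1.65 and 1.57, Smim3 by 1.68 and 1.55, and Tnfrsf8, which encodes CD30, by 1.52 and 1.37. Malt1, a scaffold and protease gene of antigen receptor signaling, had one of the tighter responses. It went from 22.5, 24.7 and 32.0 FPKM to 75.2, 67.0 and 78.5 FPKM in WT and from 19.8, 28.8 and 25.0 FPKM to 80.2, 77.2 and 76.6 FPKM in Adcy10-/-. The effects of 1.46 and 1.64 gave an interaction of 0.19 with an interval of -0.24 to 0.61.

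Among those that fell, Ms4a4c had effects of -2.57 in WT and -2.52 in Adcy10-/-, Dapl1, a gene of naive T cells, of -2.19 and -2.15, and Mndal, an interferon-inducible gene, of -1.71 and -1.54. Ms4a4b fell by effects of -1.51 and -1.40, Stap1 by -1.30 and -1.36, and Cd226, a costimulatory receptor gene, by -1.27 and -1.28. Lad1 had the lowest interaction p of these 20 genes, 0.0872. It fell from 43.8, 43.4 and 40.3 FPKM to 17.6, 16.6 and 18.6 FPKM in WT and from 45.3, 31.4 and 44.1 FPKM to 12.3, 12.3 and 14.5 FPKM in Adcy10-/-. The 3 Adcy10-/- cytokine libraries lay below the 3 of WT, and the interaction was -0.32 with an interval of -0.69 to 0.05.

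The smallest unadjusted p-values of the interaction belonged, apart from Rnu11, to genes whose cytokine effects were small and of opposite sign. Rpp25l, a gene related to a subunit of ribonuclease P, had the smallest, an unadjusted p of 0.00167. It was 29.5, 31.2 and 29.8 FPKM in WT baseline and 34.5, 38.2 and 33.6 FPKM with cytokines, and 36.5, 32.9 and 34.1 and 32.2, 31.2 and 31.9 FPKM in Adcy10-/-. The cytokine libraries were the higher ones in WT and the lower ones in Adcy10-/-, with no overlap in either. Its interaction was -0.34 (-0.52 to -0.16), and between -0.38 and -0.29 over the 23 alternatives. The lowest adjusted p of any named gene in any of these settings was 0.992.

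Anapc13, a subunit gene of the anaphase-promoting complex, had an interaction of -0.36 (-0.60 to -0.13, unadjusted p = 0.00538). It was 64.0, 56.9 and 55.6 FPKM in WT baseline and 60.9, 70.5 and 65.9 FPKM with cytokines, and 68.3, 60.7 and 63.4 and 51.6, 57.8 and 57.0 FPKM in Adcy10-/-. WT replicate 1 was the exception to the WT direction. Hexim2, which encodes an inhibitor of the elongation factor P-TEFb, had the opposite sign, 0.41 (0.12 to 0.69, unadjusted p = 0.0087). It was 1.81, 1.78 and 1.86 FPKM in WT baseline and 1.42, 1.52 and 1.22 FPKM with cytokines, and 1.53, 1.40 and 1.29 and 1.85, 1.86 and 1.40 FPKM in Adcy10-/-. The histone gene Hist1h2bk had an interaction of -0.64 (-1.11 to -0.18, unadjusted p = 0.011) at a mean of 2.76 FPKM, and its family shares near-identical copies. Mbd3, a subunit gene of the NuRD complex, and the mitochondrial ribosome gene Mrpl54 both had -0.20, with intervals of -0.34 to -0.05 and -0.35 to -0.06. The uncharacterized genes 1700001O22Rik and 0610011F06Rik had -0.45 and -0.25.

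**Figure D4:**
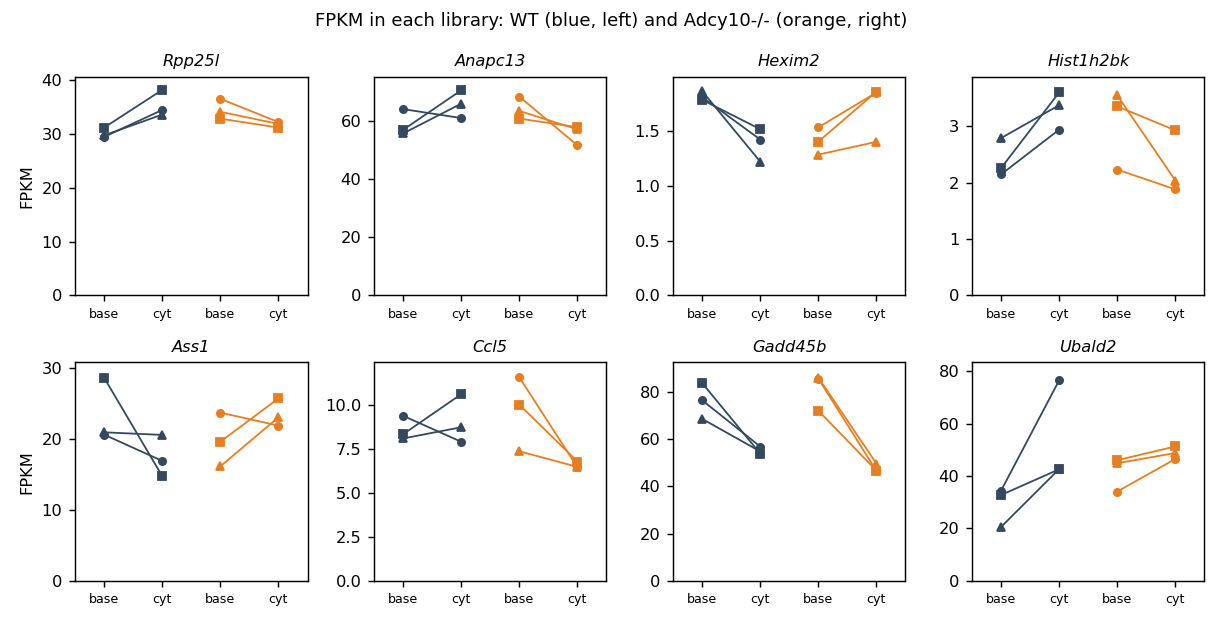
FPKM (y axis, from 0) in each library for 8 genes with small interaction p-values or large interactions, with baseline medium (base) joined to cytokines (cyt) for libraries of the same number. Blue points to the left are WT and orange points to the right Adcy10-/-, with circles, squares and triangles for numbers 1, 2 and 3. For Rpp25l every WT line goes up and every Adcy10-/- line goes down, whereas for Ubald2 all lines go up and the genotypes overlap in both media.

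Among genes of at least 5 FPKM, with small RNAs, predicted genes and receptor segments left out, the largest positive interaction was that of Ass1, the argininosuccinate synthase gene of arginine synthesis. It was 20.6, 28.6 and 20.9 FPKM in WT baseline and 16.9, 14.8 and 20.6 FPKM with cytokines, and 23.7, 19.6 and 16.1 and 21.9, 25.7 and 23.1 FPKM in Adcy10-/-. WT cytokine values were the lower ones of each pair, and 2 of the 3 Adcy10-/- pairs went up. The interaction was 0.65 (0.16 to 1.14, unadjusted p = 0.0138). Next came the mitotic kinase gene Pbk with 0.48 (-0.13 to 1.09), the long noncoding RNA Malat1 with 0.38 (-0.32 to 1.08), BC002163 with 0.36 (-0.25 to 0.96) and the cytokine gene Clcf1 with 0.35 (-0.36 to 1.07).

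The largest negative interactions at this level included Ubald2, at 34.4, 32.7 and 20.6 FPKM in WT baseline and 76.5, 42.6 and 42.6 FPKM with cytokines. In Adcy10-/- Ubald2 was 34.0, 46.0 and 44.9 and 46.5, 51.3 and 48.7 FPKM. The genotypes overlapped in both media, and the interaction was -0.60 (-1.32 to 0.12, unadjusted p = 0.0923). Cxcr4, the receptor gene for CXCL12, had -0.56 (-1.28 to 0.16), with pair changes of 0.42, 0.34 and 0.98 in WT and -0.29, 0.30 and 0.05 in Adcy10-/-. The others were Hba-a1 with -1.41 (-6.07 to 3.24), S100a9 with -0.79 (-3.52 to 1.93) and Il22, of which the first 2 mark other cells. Hba-a1, a hemoglobin gene, was 0.358, 1.01 and 56.5 FPKM in Adcy10-/- baseline and 0, 0 and 12.7 with cytokines, and replicate 3 was the highest in each of the 4 groups.

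Responses can also be compared without a model, by whether the 3 number pairs of Adcy10-/- fall wholly above or below the 3 of WT. They lay above for 374 genes (3.69%) and below for 596 (5.89%). With 3 against 3 exchangeable values, separation in either direction has a probability of 0.1, and the 2 shares together do not exceed it. After quantile normalization the counts were 495 and 443, and after median-ratio scaling 457 and 459. Counted over all tested genes, those below WT were not in clear excess under these scalings. Without them, the excess of genes below over genes above lay in abundant genes. Of 3614 genes at 20 FPKM or more on average, 71 were above and 342 below. Their median interaction was -0.03 against 0.01 for the 3633 genes of 5 to 20 FPKM, 0.00 after quantile normalization, -0.02 after median-ratio scaling, and -0.02 without WT cytokine replicate 2, the library with the highest FPKM sum. At this level 43 genes had an unadjusted p under 0.05, 3 of them higher in Adcy10-/-. After quantile normalization 34 did, 8 of them higher, and after median-ratio scaling 34, 5 of them higher. Among abundant genes at this p, most thus stayed lower in Adcy10-/- under both scalings.

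The mitochondrial respiratory chain genes are abundant and showed this shift. Among 57 tested members 1 rose and none fell on the average effect, beside 6.57% and 6.68% of all genes. The median cytokine effect of the list was 0.06 in WT and -0.01 in Adcy10-/-. Of its 57 interactions 49 were below 0, against 5484 of all 10126. Ndufb10, a complex I subunit gene, was 129.9, 119 and 123 FPKM in WT baseline and 129, 137 and 133 FPKM with cytokines, and 134, 134 and 132 and 127, 126 and 122 FPKM in Adcy10-/-. The 3 Adcy10-/- cytokine values were below the 3 baseline ones, and the interaction was -0.19 (-0.33 to -0.05, unadjusted p = 0.0111). Atp5d, an ATP synthase subunit gene, had -0.16 (-0.32 to -0.01, unadjusted p = 0.0374). All 57 intervals stayed within 2-fold. The median interaction of the list was -0.07, and it was -0.02 after quantile normalization, -0.07 after median-ratio scaling and -0.04 without WT cytokine replicate 2. It was below 0 in all 23 alternatives. Among these the blocks and variance settings cannot change an estimate, and the filters kept the same 57 genes. Whether the scaling of the libraries accounts for the shift was not tested.

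Of 27 glycolysis genes 12 rose and 3 fell on the average effect (18 and 4 with the block), with medians of 0.23 in WT and 0.17 in Adcy10-/-, and the number that rose was 6 without WT baseline replicate 2. Eno2, an enolase gene, had the lowest interaction p of the list, 0.0817, with effects of 0.16 and 0.44 (-0.04 to 0.60). Slc2a3, a glucose transporter gene, had effects of -0.08 and -0.27. Of 18 hypoxia-response genes 10 rose and none fell, with medians of 0.28 and 0.24. Of 37 interferon-stimulated genes tested, 1 rose, 19 fell and 17 did not pass, with medians of -0.23 in WT and -0.26 in Adcy10-/-. None of these 3 lists had an interaction at an unadjusted p under 0.05, beside 112 of all 10126 genes. For lists of this size none is near that share. Over all tested genes 6.57% rose and 6.68% fell on the average effect, or 12.1% and 14.6% with the block.

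The integrated stress list had interactions below 0 in 18 of 20 genes, against 5484 of all 10126. Its median was -0.09, between -0.14 and -0.01 over the alternatives, of which the blocks and variance settings cannot change it. Nupr1, a stress-induced chromatin gene, was 0.623, 0.766 and 1.21 FPKM in WT baseline and 1.17, 3.40 and 2.61 FPKM with cytokines, and 0.722, 1.91 and 1.37 and 0.927, 2.54 and 2.29 FPKM in Adcy10-/-. Its groups overlapped, and the interaction was -0.51 (-1.42 to 0.40). Bad, a proapoptotic gene, had -0.35 (-0.65 to -0.05, unadjusted p = 0.0244) with WT pairs of 0.19, 0.54 and 0.10 and Adcy10-/- pairs of 0.20, -0.19 and -0.23. Mvk, the mevalonate kinase gene of cholesterol synthesis, had -0.23 (-0.43 to -0.02, unadjusted p = 0.0327). Nfkbia, the NF-κB inhibitor gene, had -0.14 (-0.28 to 0.01, unadjusted p = 0.0598).

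**Figure D5:**
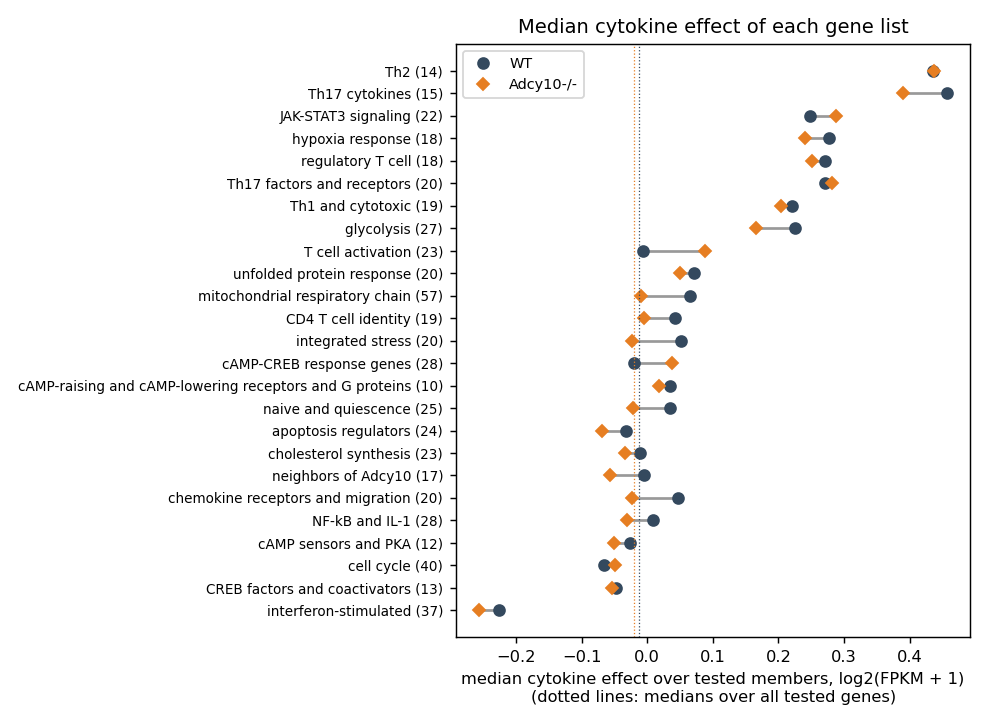
Median cytokine effect (x axis, log2(FPKM + 1)) of each gene list with at least 10 tested members (y axis, number tested in parentheses), in WT (blue circles) and Adcy10-/- (orange diamonds), joined by a grey line. Dotted lines are the medians over all tested genes, -0.01 in WT and -0.02 in Adcy10-/-. Th17, JAK-STAT3 and hypoxia lists lie to the right in both genotypes, as do the Th2, regulatory T cell, Th1 and glycolysis lists. The Th2 medians are 0.44 in both genotypes, above those of JAK-STAT3 and hypoxia. The interferon-stimulated list lies to the left in both genotypes, and no joining line reaches 0.1 in length.

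Transcripts of other cells varied between libraries, and the intervals of some of these genes were wide. The summed level of 17 B cell marker genes was 107 to 334 FPKM in WT baseline, 77.1 to 301 in WT with cytokines, 94.0 to 267 in Adcy10-/- baseline and 60.7 to 221 in Adcy10-/- with cytokines. None of the 15 tested members had an interval within 2-fold, and Cd74, an invariant chain gene, had -0.23 (-1.93 to 1.46). The 8 red cell genes summed to 2.50 to 19 FPKM in WT baseline, 1.49 to 26.4 in WT with cytokines, 1.14 to 193 in Adcy10-/- baseline and 1.00 to 127 in Adcy10-/- with cytokines. The 12 neutrophil and mast cell genes summed to 8.49 to 25.8, 14.5 to 71.5, 5.20 to 8.42 and 3.51 to 19.9 FPKM in the same order. CD8 T cell genes, a list that includes Eomes, summed to 47.0 to 55.2 FPKM in WT baseline and 24.9 to 28.3 with cytokines, against 50.5 to 58.8 and 21.0 to 28.0 in Adcy10-/-. The natural killer markers summed to 29.5 to 30.5 FPKM in WT baseline and 40.7 to 46.7 with cytokines, and to 25.1 to 35.1 and 34.3 to 41.4 in Adcy10-/-. Of 6 tested members 3 rose, beside 6.57% of all genes, while the defining gene Ncr1 stayed at or under 0.218 FPKM. Macrophage markers summed to 110 to 161 FPKM in WT baseline and 105 to 176 with cytokines, and to 95.8 to 115 and 90.8 to 97.9 in Adcy10-/-. Dendritic cell markers, most of whose level is Ccr7, summed to 696 to 797 FPKM in WT baseline and 532 to 582 with cytokines, and to 644 to 730.0 and 471 to 501 in Adcy10-/-, with no overlap between media. None of their 5 tested members was called without the block. With the block 1 rose and 4 fell, beside 12.1% and 14.6% of all genes. The part of these cells in any result was not tested.

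Mid1 and Ehd3 were followed up because their levels differed between genotypes under a block. No gene passed for the average genotype effect in limma without a block (0.0%). Mid1, a ubiquitin ligase gene, was 4.77, 4.71 and 3.95 FPKM in WT baseline and 4.13, 2.97 and 3.00 FPKM with cytokines, and 2.82, 1.08 and 1.58 and 1.66, 0.800 and 1.31 FPKM in Adcy10-/-. All Adcy10-/- libraries lay below all WT libraries, in both media, and the interaction was 0.03 (-0.61 to 0.68). Ehd3, an endocytic recycling gene, was 15.8, 11.6 and 10.6 FPKM in WT baseline and 11.0, 9.91 and 9.74 FPKM with cytokines, and 10.4, 7.05 and 8.56 and 7.10, 5.84 and 6.36 FPKM in Adcy10-/-. Its interaction was -0.10 (-0.55 to 0.35). With the replicate number as a block over all libraries, 3 genes passed for the average genotype effect: Mid1 (-0.98, adjusted p = 0.0111), Ehd3 (-0.55, 0.0163) and the mitochondrial ribosome gene Mrps14 (-0.33, 0.0163).

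The interactions of greatest size belonged to small RNA genes listed at 0 FPKM in some libraries, chosen here after their values were seen apart from Rnu11. Rnu11, a spliceosomal RNA gene, was at 21.5, 20.4 and 0 FPKM in WT baseline, at 65.6, 19.8 and 0 in Adcy10-/- with cytokines, and at 0 in the other 6 libraries. Snora75 was at 0 in all 3 WT cytokine libraries and at 0, 28.6 and 20.5 FPKM in those of Adcy10-/-, with 24.5 to 54.5 FPKM in the baseline libraries. Mir703 was at 39.0, 0 and 0 FPKM in WT with cytokines and at 28.0 to 101 FPKM in the other 9 libraries. These were the sources of the calls for the interaction seen when libraries were left out: Mir703 without WT cytokine replicate 1 (adjusted p = 0.0118) and Snora75 without Adcy10-/- cytokine replicate 1 (adjusted p = 5.42e-04). A value listed at 0 can be a failed estimate, and no fold is given for these genes.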

How the data were processed

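RNA-seq of 12 libraries was compared in 4 groups of 3 (WT or Adcy10-/-, baseline medium or cytokines), grouped by the labels. The values are FPKM per gene as deposited by the authors, and read depth is unknown. The submitters' processing notes name STAR 2.4.0f1, SAMtools 0.1.19, Cufflinks, HTSeq and mm9, with no role or order. Each file held 24488 rows, and rows of 1 gene name were summed, leaving 23991 names. A minimum of 1 FPKM in 3 libraries left 10126 genes, tested on log2(FPKM + 1), with a pseudocount of 1. limma 3.58.1 in R 4.3.3 was fitted to the 4 group means with a variance trend (residual degrees of freedom 8), two-sided, with Benjamini-Hochberg adjustment over all 10126 genes and a threshold of 0.05. The code was tested on simulated data. The comparison, gene lists and named genes were chosen with earlier results of these data known.

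Replicate numbers come from the labels, which do not say what they mark. Deviations from group means correlated between same-numbered libraries of 1 genotype (0.294 to 0.536, 6 pairs), so the number was used as a block within genotype (4 residual degrees of freedom). Across genotypes the correlation was 0.074 to 0.523 over 12 pairs, under 0.1 for some, and the numbers were not taken to pair the genotypes. Best-correlated partners shared the number for 12 of 12 libraries. The named genes are a panel of 37, the 10 smallest interaction p-values, the 5 largest interactions and 10 largest average cytokine effects each way at a mean of at least 5 FPKM (small RNAs, predicted genes and receptor segments left out), and, from every list, at most 2 members with the smallest interaction p. Alternatives were another pseudocount (0.1), filter or scaling, the blocks, other variance settings and leaving out libraries. A panel gene and a marker gene are not reported by name here. Promoter windows are RefSeq's. Fits that leave out a library assume that its group varies like the others.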

Additional observations from a re-analysis of the deposited data

How the results depend on the processing

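The count of genes called for the interaction stayed at 0 with the replicate number as a block over all libraries, with the block within genotype, and under the other pseudocount, filter, scaling and variance settings. It was between 0 and 1 when single libraries were left out, and 1 without the 4 libraries numbered 1 (Snora75, adjusted p = 4.00e-04). Genes at an unadjusted p under 0.05 numbered 335 with the block over all libraries and 368 without a filter on low values. The count for the average cytokine effect, 1341, was 2625 with the replicate block over all libraries and 2708 with the block within genotype, and 910 to 1300 with 1 library left out. The count for the average genotype effect, 0, was 3 with the replicate block, 0 to 1 with 1 library left out and 2 without the 4 libraries numbered 1; it cannot be estimated with the block within genotype. The cause of these changes was not tested. Of the 127 named genes tested, none passed for the interaction in any alternative that tested it, and 76 kept their sign in all of these (21 genes were under the filter of 5 FPKM and had 1 alternative fewer than the 23). The blocks and variance settings cannot change an estimate, so under them no sign could change. Of 49 named genes called for the average effect, 44 were called with each of the 12 libraries left out in turn. The block changed no other call for the interaction. Read depth is unknown, and for Il17a and Il17f the intervals of the interaction without a block reached beyond 1 in both directions.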
